A study of Mus musculus with 21 samples.

Results

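SR proteins are splicing factors that carry 1 or more RNA-recognition motifs and a tail rich in arginine and serine. They bind exon sequences, recruit the U1 and U2 small nuclear ribonucleoproteins to nearby splice sites, and several also take part in mRNA export and translation. Many SR genes limit their own output by splicing in a "poison" exon or keeping an intron that brings an early stop codon, which can send the transcript to nonsense-mediated decay. The 10 members described here are Srsf1, Srsf2, Srsf3, Srsf4, Srsf5, Srsf6, Srsf7, Srsf9, Srsf10 and Srsf11. They were chosen by name, out of 10917 genes to which at least 1 merged long-read transcript could be assigned, and they held 42 of the 22612 merged transcripts. In mm10 the members with an RRM pair are Srsf1 (chr11:88047373-88053755), Srsf4 (chr4:131873617-131901706), Srsf5 (chr12:80945504-80950507), Srsf6 (chr2:162931528-162937121) and Srsf9 (chr5:115327177-115333080), all on the plus strand. The single-RRM members are Srsf2 (chr11:116849901-116853094, minus), Srsf3 (chr17:29032628-29043373, plus) and Srsf7 (chr17:80200080-80207307, minus), and the atypical members are Srsf10 (chr4:135855747-135869908, plus) and Srsf11 (chr3:158010473-158036639, minus).

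The transcriptome was measured in mouse sperm, MII oocytes, 1-cell, 2-cell, 4-cell and 8-cell embryos and blastocysts. Sperm came from the epididymis of DBA/2J males (the protocol writes DBA/2N), oocytes from C57BL/6J females aged 3 to 5 weeks, and embryos from crosses of these. All females had been superovulated with 7.5 IU of PMSG and 7.5 IU of hCG. Oocytes were lysed at 20 h after hCG, and embryos were cultured in vitro to 24–26 h (1-cell), 46–48 h (2-cell), 54–58 h (4-cell), 68–70 h (8-cell) and 94–96 h (blastocyst). Each stage had 1 long-read pool and 2 short-read libraries, made from amplified cDNA of pooled gametes or embryos. Levels are given as TPM (a length-corrected share of a library, scaled to a fixed total), summed over the transcripts of a gene. TPM is a share of all RNA in a library, so a change in RNA per embryo and a change in the rest of the RNA cannot be told apart.

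The libraries of some stages stood apart from each other. Over all genes tested, log2 TPM of the 2 libraries correlated at r = 0.982 in 4-cell embryos but at 0.729 in 2-cell embryos and 0.756 in sperm. The summed TPM of 8 oocyte markers was 116 in 2-cell replicate 1 and 1327 in replicate 2, and that of 7 markers of 2-cell embryos was 29.7 and 588. In sperm, 8 leukocyte markers summed to 81640 TPM in replicate 1 and 16540 in replicate 2, with Cd74 the highest, and 4 epididymal markers to 2054 and 352, while no other library passed 131 and 2.99. Sperm markers reached 17540 and 21330 TPM in sperm and at most 46.4 elsewhere, and blastocyst markers 10230 and 37420 TPM in blastocysts and at most 832 elsewhere. None of 8 cumulus or granulosa markers had a merged transcript.

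The early stop codons on which the isoform results turn are shown first, because the exon or intron that carries each one is what separates a coding SR transcript from a poison form. Each sequence runs 5′ to 3′ along the spliced transcript, with the first in-frame stop codon in capitals, 30 bases before it and 30 after it. The bases were read from GENCODE vM21 transcripts (GRCm38, the assembly of mm10). The Srsf7 stop codons lie on the minus strand at chr17:80205054-80205056 in the cassette exon and chr17:80205174-80205176 in the retained intron, the Srsf5 codons on the plus strand at chr12:80948177-80948179 and chr12:80947872-80947874, and the Srsf11 codon on the minus strand at chr3:158023310-158023312.
Srsf7 cassette exon: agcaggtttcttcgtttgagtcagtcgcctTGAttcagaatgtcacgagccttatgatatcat
Srsf7 retained intron: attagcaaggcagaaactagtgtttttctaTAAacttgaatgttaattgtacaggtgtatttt
Srsf5 exon inside the intron: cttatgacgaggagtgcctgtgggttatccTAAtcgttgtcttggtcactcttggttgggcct
Srsf5 retained intron: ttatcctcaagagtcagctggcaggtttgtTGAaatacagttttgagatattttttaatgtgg
Srsf11 cassette exon: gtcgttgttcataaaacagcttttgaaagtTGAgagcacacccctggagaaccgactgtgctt

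Summed over the 10 members, SR factors took 255 and 352 TPM in oocytes and 330 and 308 TPM in 1-cell embryos. The sum stood at 2248 and 849 TPM in 2-cell embryos, 2655 and 1749 in 4-cell embryos, 1463 and 1500 in 8-cell embryos and 1110 and 1236 in blastocysts. Every library from the 2-cell stage on therefore lay above all 4 oocyte and 1-cell libraries. Sperm had 726 and 906 TPM.

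**Figure D1:**
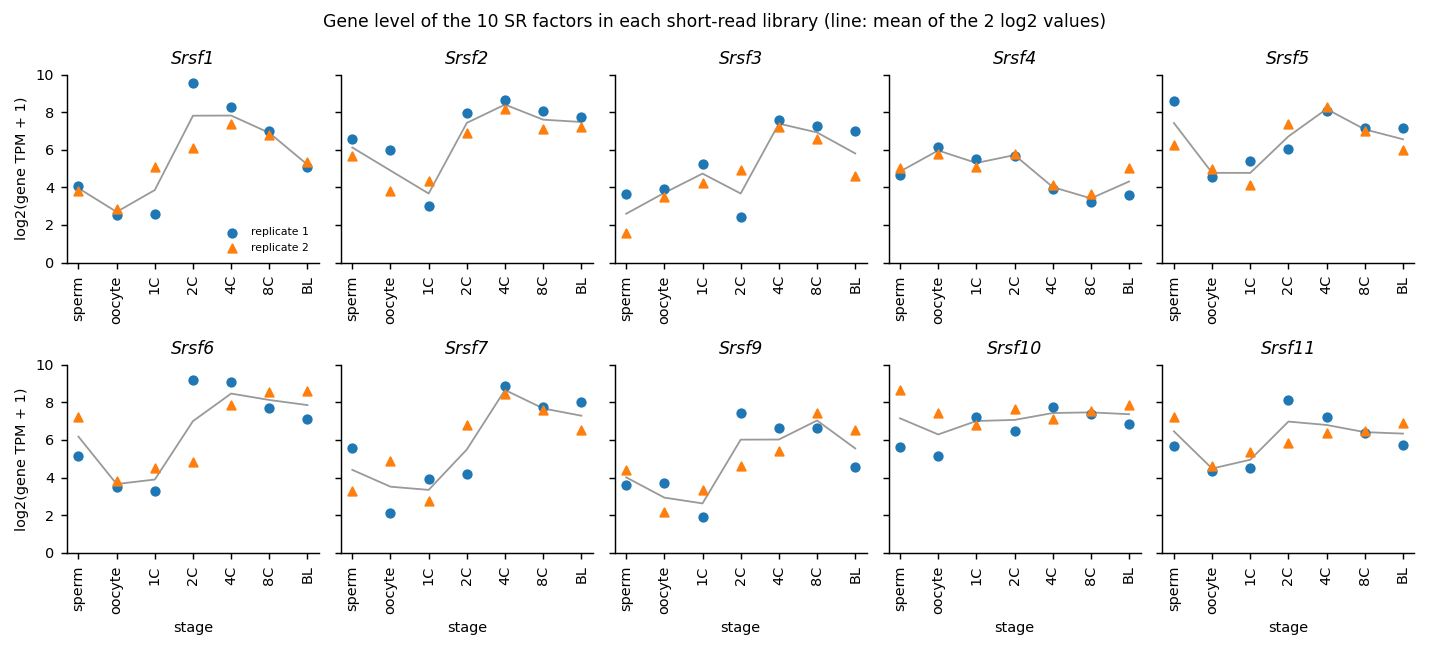
Gene level of each SR factor as log2(TPM + 1) by stage, with circles for replicate 1, triangles for replicate 2 and a line through the mean of the 2 log2 values. Srsf1 stands at 751 TPM in 2-cell replicate 1 and 66.1 in replicate 2, Srsf4 has its highest mean in oocytes and its lowest in 8-cell embryos, and the stage means of Srsf10 span 2.22-fold.

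Across the 12 libraries from oocyte to blastocyst, 8 of the 10 members differed between stages (limma F-test on log2(TPM + 1), adjusted p under 0.05, which 70.8% of all 10000 tested genes passed). The exceptions were Srsf10 (adjusted p = 0.737) and Srsf11 (0.0536). Without both 2-cell libraries 9 members passed, and the genes that passed also went up, from 7083 to 7921.

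The members with an RRM pair are described first. Srsf1, the founding SR protein and a general enhancer of exon inclusion, was at 4.88 and 6.13 TPM in oocytes and 5.09 and 33.5 in 1-cell embryos. It stood at 751 and 66.1 TPM in 2-cell, 313 and 161 in 4-cell, 128 and 110 in 8-cell embryos and 32.5 and 39.7 in blastocysts. Both 2-cell libraries lay above both 1-cell libraries, and both blastocyst libraries below both 8-cell libraries. From 1-cell to 2-cell embryos Srsf1 rose by 3.95 on the log2(TPM + 1) scale (SE 1.03, adjusted p = 0.0101). The call was lost without 1-cell replicate 1 (2.70, adjusted p = 0.122) or 2-cell replicate 1 (2.21, adjusted p = 0.0809). The later decline did not pass the test (8-cell to blastocyst -1.69, SE 1.03, adjusted p = 0.524). In the order of stage means, from oocyte at the bottom to 2-cell at the top, the pairs sperm and 1-cell, 1-cell and blastocyst, and 4-cell and 2-cell overlapped.

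Srsf6, a regulator of alternative exons, was at 8.79 and 21.6 TPM in 1-cell and 580 and 27.2 TPM in 2-cell embryos, so 2-cell replicate 2 lay only just above the 1-cell libraries. Its rise of 3.11 (SE 1.13) passed narrowly (adjusted p = 0.0489) and fell to 0.92 without 2-cell replicate 1 (adjusted p = 0.461). The call also ended in 10 of the other 11 fits that each left out 1 library, with adjusted p up to 0.238. By the 4-cell stage both libraries were high (542 and 229 TPM), and Srsf6 then held at 204 and 380 TPM in 8-cell embryos and 135 and 392 in blastocysts. From the oocyte, at 10.2 and 13.2 TPM, to the blastocyst Srsf6 rose by 4.20 (SE 1.13, adjusted p = 0.00631), the largest such rise among the members. The call was lost without blastocyst replicate 2 (3.43, adjusted p = 0.0701).

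Srsf9, a close relative of Srsf1, was at 2.81 and 9.0 TPM in 1-cell and 170 and 23.5 in 2-cell embryos, a rise of 3.39 (SE 1.01, adjusted p = 0.0198). Without 1-cell replicate 1 the rise was 2.69 (adjusted p = 0.149) and without 2-cell replicate 1 it was 1.99 (adjusted p = 0.142). Its highest stage mean came later, at 99.7 and 170 TPM in 8-cell embryos, overlapping the 2-cell range. Blastocysts had 22.3 and 93.1 TPM, against 12.1 and 3.45 in oocytes (2.62, SE 1.01, adjusted p = 0.0412). That call was lost without either of oocyte replicate 2 (1.83) and blastocyst replicate 2 (1.61), and narrowly without either 1-cell or either 8-cell library (2.62 each), with adjusted p from 0.0502 to 0.296.

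For Srsf5, known as an insulin-induced gene in liver cells, the levels were 42.1 and 16.3 TPM in 1-cell, 65.3 and 164 in 2-cell and 269 and 305 in 4-cell embryos. The 3 stages did not overlap, and from 1-cell to 4-cell Srsf5 rose by 3.40 (SE 0.75, adjusted p = 0.00204), in every fit that left out 1 library. The separate steps did not pass (1.94, adjusted p = 0.0628, and 1.45, adjusted p = 0.244). Later levels were 142 and 128 TPM in 8-cell embryos and 141 and 61.6 in blastocysts.

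Srsf4, whose protein has the longest arginine- and serine-rich tail of these RRM-pair members, ran the other way. It stood at 70.6 and 53.2 TPM in oocytes, 45.1 and 32.5 in 1-cell, 50.0 and 53.3 in 2-cell, 13.9 and 16.6 in 4-cell, 8.17 and 11.4 in 8-cell embryos and 11.2 and 31.5 in blastocysts. Both oocyte libraries lay above both libraries of every stage except the 2-cell stage, which touched the oocyte range. Srsf4 passed the F-test over the stages (adjusted p = 0.019), but none of its tested steps passed (2-cell to 4-cell -1.70, SE 0.68, adjusted p = 0.147; oocyte to blastocyst -1.65, SE 0.68, adjusted p = 0.054). After quantile normalization, the oocyte to blastocyst difference was -2.29 and passed (adjusted p = 0.0144). Its single merged transcript lacked the 5′ part of the gene and the annotated start codon. On the opposite strand Gm12992 shares 1532 exon bases with Srsf4, and no source used here states that the short reads keep strand, so reads of the pair cannot be told apart.

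The single-RRM members followed the same course with different timing. Srsf2 (SC35), a component of nuclear speckles, was at 62.9 and 12.8 TPM in oocytes and 7.07 and 19.2 in 1-cell embryos. It reached 246 and 119 TPM in 2-cell, 402 and 283 in 4-cell, 270 and 138 in 8-cell embryos and 211 and 148 in blastocysts. Every embryo library from the 2-cell stage on lay above all oocyte and 1-cell libraries. The coding transcript TCONS_00004115 alone did not separate in this way. It was at 28.1 TPM in 2-cell replicate 2, against 62.5 in oocyte replicate 1 and 4.65 and 18.9 in 1-cell embryos. In 2-cell replicate 2, 91.1 TPM came from TCONS_00004114, a 520-base transcript without the start codon. The 4-cell maximum depended on the transcript set: requantified over the transcripts of each stage's own long-read pool, Srsf2 was at 236 and 120 TPM in 2-cell, 213 and 129 in 4-cell and 104 and 76.9 in 8-cell embryos, with the 2-cell and 4-cell libraries overlapping. The rise from 1-cell to 2-cell was 3.76 (SE 0.84, adjusted p = 0.00433), and it passed in every fit that left out 1 library and after quantile normalization (3.32, adjusted p = 0.0119). From oocyte to blastocyst Srsf2 rose by 2.58 (SE 0.84, adjusted p = 0.0186), a call lost without oocyte replicate 2 (1.48, adjusted p = 0.198) or blastocyst replicate 1 (2.33, adjusted p = 0.0963). Srsf2 shares 460 exon bases with Mettl23 and 288 with Mfsd11 on the opposite strand. Those genes were at 90.4 and 47.8 TPM in 2-cell replicate 1 and 16.4 and 153 TPM in replicate 2, and their part in the Srsf2 values was not tested.

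Srsf3, the smallest SR protein and an mRNA export adaptor, came up a stage later than Srsf2. Its levels were 36.7 and 17.7 TPM in 1-cell and 4.31 and 29.7 in 2-cell embryos, against 190 and 146 in 4-cell embryos. From 2-cell to 4-cell it rose by 3.72 (SE 0.93, adjusted p = 0.0458), and this was the only member called in that step, which called 1.58% of all genes as higher. The call was narrow: it was lost in 9 of the 12 fits that each left out 1 library, with changes from 2.45 to 3.90 and adjusted p up to 0.324, and passed without 2-cell replicate 2 (4.98), without blastocyst replicate 1 and without blastocyst replicate 2. Levels were 151 and 95.5 TPM in 8-cell embryos (219 and 196 over own-stage transcripts) and 129 and 23.1 in blastocysts. All 6 neighbouring pairs in the order of its stage means overlapped.

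Srsf7, which has a zinc knuckle beside its RRM and also serves in export, was at 3.40 and 28.7 TPM in oocytes, 14.4 and 5.71 in 1-cell and 17.2 and 110 in 2-cell embryos. It then stood at 469 and 345 TPM in 4-cell embryos, the highest stage mean of the 10 members there, at 213 and 195 in 8-cell embryos and at 260 and 92.8 in blastocysts. Over own-stage transcripts its levels were higher, at 7.79 and 65.2 TPM in oocytes, 38.1 and 233 in 2-cell, 1031 and 748 in 4-cell and 389 and 388 in 8-cell embryos. From 1-cell to 4-cell Srsf7 rose by 5.31 (SE 1.01, adjusted p = 0.000729), with adjusted p of at most 0.0146 when any 1 library was left out. Neither adjacent step passed (2.15, adjusted p = 0.119, and 3.16, adjusted p = 0.0857). The rise from oocyte to blastocyst was 3.77 (SE 1.01, adjusted p = 0.00607), lost without oocyte replicate 1 (2.40, adjusted p = 0.094) or blastocyst replicate 1 (3.04, adjusted p = 0.0723).

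Of the atypical members, Srsf10, which acts as a splicing repressor when dephosphorylated, was at 34.8 and 170 TPM in oocytes and 146 and 112 TPM in 1-cell embryos, where its stage mean ranked first of the 10. Later stages ranged from 89.0 to 234 TPM. Its stage means spanned 2.22-fold over all 7 stages, the least of any member, while that of Srsf1 spanned 74.2-fold, and every neighbouring pair of stages overlapped. That span runs from the oocyte to sperm (48.2 and 409 TPM) and holds for the merged transcripts. Over own-stage transcripts the lowest stage mean was 61.8 TPM, in sperm, and the highest 276 TPM, in 4-cell embryos. No difference of Srsf10 passed the test. Srsf11, an SR-like protein that was found with U2AF, was at 19.3 and 23.6 TPM in oocytes, 21.9 and 40.5 in 1-cell and 274 and 56.7 in 2-cell embryos. It stood at 146 and 82.8 TPM in 4-cell, 81.0 and 87.9 in 8-cell embryos and 53.0 and 120 in blastocysts. Its own-stage means were 228 TPM in sperm (merged 100), 40.9 in oocytes, 276 in 2-cell and 135 in 8-cell embryos and 156 in blastocysts. The groups did not overlap from 1-cell to 2-cell, but the difference of 2.03 (SE 0.81) did not pass (adjusted p = 0.0708).

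Read by transition, the members changed mainly between the 1-cell and 4-cell stages. From oocyte to 1-cell 0 of 10 were called (limma, 0 at an unadjusted p under 0.05, 0.38% of all genes called). From 1-cell to 2-cell 4 of 10 rose (Srsf1, Srsf2, Srsf6 and Srsf9), where 26.1% of all genes rose, and both 2-cell libraries lay above both 1-cell libraries for 8 of 10 members, against 42.7% of all genes. Srsf3 and Srsf10 overlapped. The 8-cell against the 4-cell stage gave 0 calls and so did the blastocyst against the 8-cell stage (0 at an unadjusted p under 0.05 in each), with 1.67% and 3% of all genes called. The libraries of 6 of 10 members did not overlap from 4-cell to 8-cell, against 70.3% of all genes. From 8-cell to blastocyst 2 of 10 did not overlap, against 47.8%. These fits share 1 estimate of the spread with the 2-cell libraries. Fitted on its own 4 libraries, the 4-cell to 8-cell step called 2 members and 3482 of all genes. From oocyte to blastocyst 4 members rose (Srsf2, Srsf6, Srsf7 and Srsf9), where 35.4% of all genes rose. Without both 2-cell libraries 9 members were called in that comparison. The calls over all genes in either direction then also went up, from 5341 to 6191. The count of members was lower than 4 without oocyte replicate 2 or blastocyst replicate 1. The 1-cell to 2-cell count was 1 without 1-cell replicate 1. Across the 2-cell stage, from 1-cell to 4-cell, 7 of 10 rose (Srsf1, Srsf2, Srsf3, Srsf5, Srsf6, Srsf7 and Srsf9) beside 35.5% of all genes. That comparison was added because the 2-cell libraries differ. Srsf2, Srsf5, Srsf6 and Srsf7 rose there in every fit that left out 1 library. Srsf1 was lost without 1-cell replicate 1 (2.71, adjusted p = 0.0842) or 4-cell replicate 1 (3.49, adjusted p = 0.0518), and Srsf9 without the same libraries (2.70 and 2.77, adjusted p = 0.106 each). Srsf3 was lost without 1-cell replicate 2 (2.15, adjusted p = 0.171), 4-cell replicate 1 (2.47, adjusted p = 0.129) or 4-cell replicate 2 (2.84, adjusted p = 0.0828), so that 4 members were called without 4-cell replicate 1. The 1-cell embryo served as the start of both median changes of the members, 2.09 to the 2-cell and 3.40 to the 4-cell stage, against 0.72 and 0.89 over all genes.

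**Figure D2:**
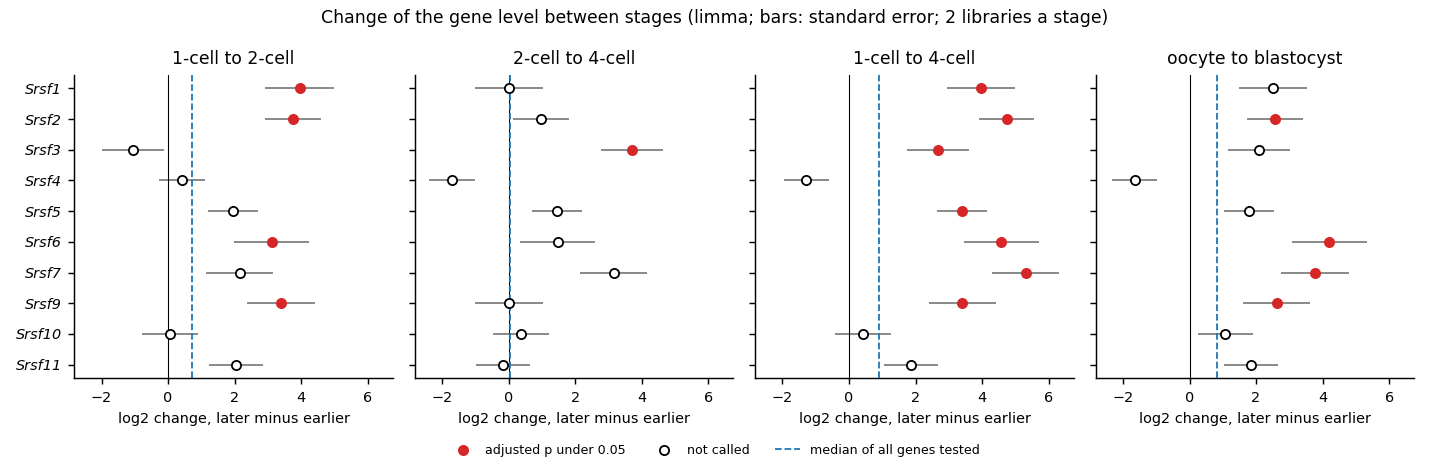
Change of each member between stages as log2 difference (later minus earlier) with its standard error, red where the adjusted p was under 0.05 and open otherwise, with a dashed line at the median of all genes tested. From 1-cell to 4-cell 7 members are red and lie between 2.66 and 5.31, and Srsf4 is the only member below 0.

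The all-gene median depends on the scaling. After quantile normalization it moved from 0.72 to -0.12 for 1-cell to 2-cell, and the genes called went from 2607 higher and 620 lower to 1591 higher and 1757 lower. Under that scaling Srsf1 (3.40, adjusted p = 0.0425) and Srsf2 were called in that step. From 1-cell to 4-cell Srsf1, Srsf2, Srsf5, Srsf6 and Srsf7 were called as higher and Srsf4 as lower (-2.23, adjusted p = 0.0174). From oocyte to blastocyst Srsf7 was higher (2.92, adjusted p = 0.0183) and Srsf4 lower, and no other member was called.

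The 2-cell libraries divided the members evenly. Srsf1, Srsf2, Srsf6, Srsf9 and Srsf11 were higher in replicate 1, with Srsf2 closest (-1.04, replicate 2 minus replicate 1 on the log2 scale) and Srsf6 farthest apart (-4.36). Srsf3, Srsf4, Srsf5, Srsf7 and Srsf10 were higher in replicate 2, by 0.09 (Srsf4) to 2.61 (Srsf7). The oocyte and 2-cell markers given above were higher in replicate 2, and their part in these gaps was not tested.

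In sperm, Srsf5 was at 390 and 74.4 TPM, against 22.6 and 30.7 in oocytes. Its stage mean there (232 TPM) was close to that of Srsf10 (228 TPM), and in sperm replicate 2 Srsf10, Srsf11 and Srsf6 lay above it. The oocyte was lower by 2.65 (SE 0.89, adjusted p = 0.0186, in a fit on all 14 libraries), and Srsf5 was the only member called, where 36.2% of all genes were lower in oocytes. Without both 2-cell libraries 3 members were called, and the calls over all genes in either direction also went up, from 5753 to 6341. The call was lost without sperm replicate 1 (-1.46, adjusted p = 0.214) or oocyte replicate 1 (-2.44, adjusted p = 0.0871). Srsf10 differed widely between the sperm libraries, at 48.2 and 409 TPM. Sperm replicate 1, with the higher Srsf5, also had the higher sums of leukocyte and epididymal markers given above, and their part in the sperm levels was not tested.

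Among the isoforms, Srsf7 had by far the most, 17 of the 42 merged transcripts, followed by Srsf10 with 8 and Srsf5 with 6. Srsf3, Srsf4 and Srsf6 had 1 each, and Srsf1, Srsf2, Srsf9 and Srsf11 had 2 each. The annotation lists 15 decay-class transcripts for 9 of the members, and only 1 of their intron chains was among the merged transcripts, that of Srsf7-203 (TCONS_00009459). Reading each transcript from the annotated start codon, 8 merged transcripts met an early stop, more than 50 bases upstream of the last exon junction and not used by any coding transcript. All 8 were of Srsf7. The frame could not be read in 4 merged transcripts without the annotated start codon, 1 each of Srsf2, Srsf4, Srsf5 and Srsf9. It could also not be read in 2 with sequence that was not known, 1 each of Srsf7 and Srsf10. The Srsf4 transcript is the only one of that gene.

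Of these 8 Srsf7 transcripts, 5 carried a cassette exon. It had a long form of 460 bases (chr17:80204622-80205081, minus strand) and a short form of 107 bases that ends earlier (chr17:80204975-80205081). Both begin at the same base and meet the same stop codon, shown above, after 137 codons. The other 3 kept the whole 874-base intron (chr17:80204388-80205261) and met a stop after 157 codons. Main coding forms were TCONS_00009450 with 238 codons and TCONS_00009465 with 235, which match Srsf7-201 and Srsf7-208.

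**Figure D3:**
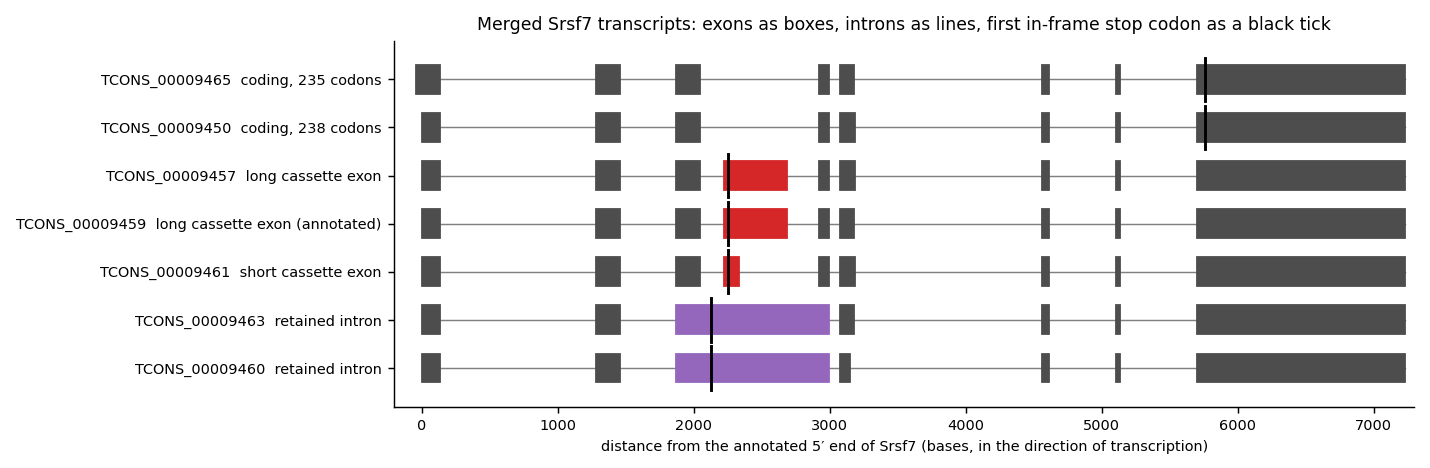
Exons (boxes) and introns (lines) of 7 merged Srsf7 transcripts by distance from the annotated 5′ end, in bases, with the cassette exon in red, the retained intron in purple and the first in-frame stop as a black tick. The stop moves from the last exon in the coding forms to the cassette exon of 460 or 107 bases or to the retained intron.

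Early-stop forms made up 1.44% and 1.20% of Srsf7 TPM in oocytes, 15.0% and 17.6% in 1-cell embryos, 32.6% and 62.4% in 2-cell embryos, 6.52% and 6.06% in 4-cell embryos, 7.97% and 6.13% in 8-cell embryos, and 9.59% and 13.7% in blastocysts. Both 2-cell libraries thus lay above every other embryo and oocyte library. The shares before the 2-cell stage rest on low values. Early-stop forms were at 0.0488 and 0.343 TPM in oocytes and 2.16 and 1.005 TPM in 1-cell embryos. Among genes with early-stop and other forms, the median share was 10.9% (585 genes) and 15.7% (602 genes) in the libraries of the 2-cell stage and 8.61% (592) and 8.08% (596) in those of the 4-cell stage.

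The share fell from 2-cell to 4-cell, with a change of -3.74 in the log2 ratio of early-stop to other TPM (SE 0.76, adjusted p = 0.0246). In this test 5.45% of the 605 genes fell, with early stops counted by the wider rule for all genes. With only the annotated decay form TCONS_00009459, which held 7.34% and 11.4% of Srsf7 in 2-cell and 1.77% and 0.138% in 4-cell embryos, the change was -3.87 (SE 0.99, adjusted p = 0.0293), among 134 genes of which 11.2% fell. The reading-frame result was lost without 2-cell replicate 2 (-2.92, adjusted p = 0.0756), 4-cell replicate 1 (-3.78, adjusted p = 0.166) or 4-cell replicate 2 (-3.69, adjusted p = 0.161). The annotated form was lost without either 2-cell, either 4-cell or either 8-cell library, with changes from -4.99 to -2.75 and adjusted p from 0.0502 to 0.235. The earlier step from 1-cell to 2-cell did not pass (1.68, SE 0.76, adjusted p = 0.12).

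In TPM, early-stop forms went from 5.62 and 68.9 in 2-cell to 30.6 and 20.9 in 4-cell embryos, with overlapping ranges. The remaining Srsf7 forms went from 11.6 and 41.5 TPM to 438 and 324. The cassette exon gave most of the early-stop TPM in 2-cell embryos (27.5% and 56.9% of the gene, against 5.11% and 5.45% for the retained intron). In sperm the retained intron led, with 68.6% and 39.0% of the gene beside 18.8% and 20.9% for the cassette. The part of the leukocyte and epididymal markers in these sperm shares was not tested. Of the blastocyst forms, the retained intron took 6.42% and 10.1% and the cassette 3.16% and 3.57%.

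**Figure D4:**
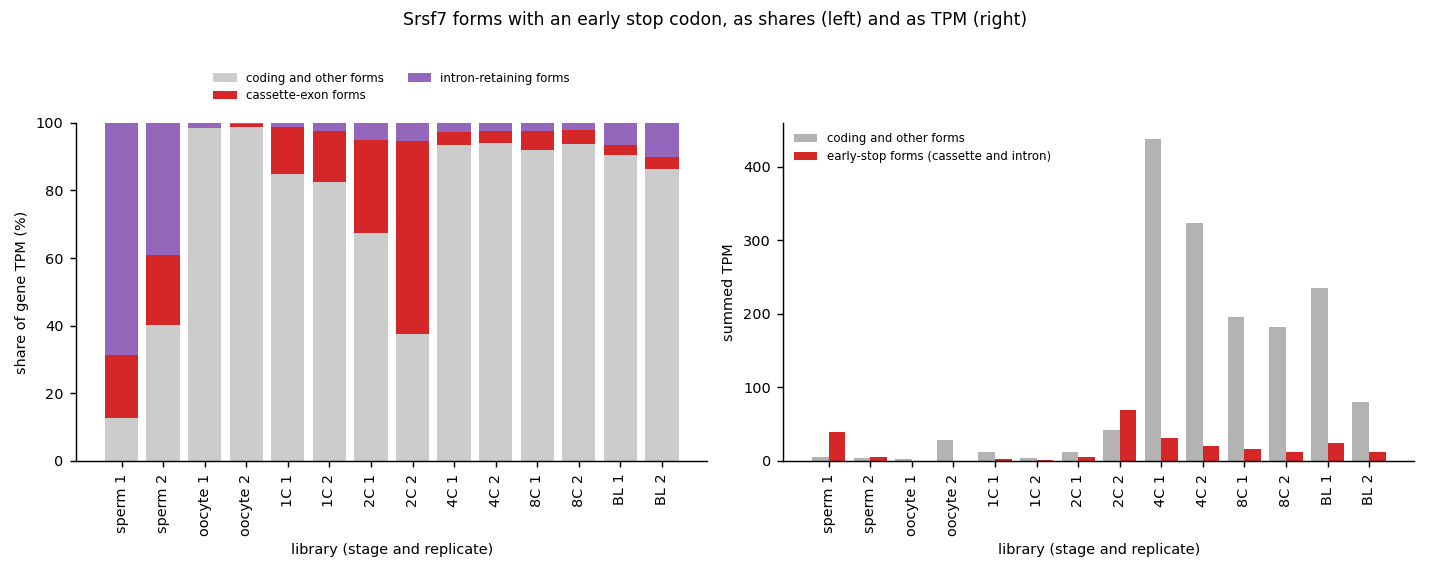
Left, share of Srsf7 TPM by kind of transcript in each library, in percent. Right, summed TPM of the early-stop forms (red) and of all other forms (grey). The early-stop share peaks at 32.6% and 62.4% in the 2-cell libraries among embryos, while the other forms reach 438 and 324 TPM in the 4-cell libraries.

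The long-read pools of single stages were read in the same way and held forms that the merged set lacks. These pools held 149 forms of the members, of which 16 had an early stop: 11 of Srsf7, 4 of Srsf5 and 1 of Srsf11. Requantified over the transcripts of their own stage, early-stop forms took 49.6% and 68.1% of Srsf7 in 2-cell embryos, 3.65% and 3.38% in 4-cell embryos, 5.03% and 3.88% in 8-cell embryos and 7.53% and 9.75% in blastocysts. These values come from transcript sets that differ by stage and were not tested between stages.

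Srsf5 had early-stop forms in the sperm and 2-cell pools only. They either kept a whole intron and stopped after 124 codons, or used sequence inside that intron and stopped after 138 codons. The 2-cell pool held the latter as a cassette exon of 534 bases. Together these forms took 51.5% and 9.89% of Srsf5 TPM in sperm (137 and 6.22 TPM) and 5.07% and 4.28% in 2-cell embryos. Srsf11 had 1 early-stop form, in sperm, with a 117-base cassette exon that is also in the decay-class transcripts Srsf11-206 and Srsf11-212. It took 39.6% and 28.3% of Srsf11 TPM in sperm. Srsf9 had a merged transcript with a 358-base exon (chr5:115328347-115328704) that is otherwise in the decay-class transcript Srsf9-205. This transcript began downstream of the annotated start codon, so its frame could not be read. Over the merged set it took 35.7% and 34.7% of Srsf9 TPM in sperm, 0% in both oocyte libraries and 0.86% to 19.6% in embryos. Over own-stage transcripts the form with this exon took 25.6% and 25.3% in sperm. Leukocyte and epididymal markers were present in both sperm libraries, as given above, and their part in the sperm shares of Srsf5, Srsf11 and Srsf9 was not tested. Among forms whose frame could be read, Srsf1, Srsf2, Srsf3, Srsf6, Srsf9 and Srsf10 had no early stop in any pool. Every own-stage form of Srsf4 lacked the annotated start codon, so the frame of Srsf4 was not read. Over all members, 12 forms had no annotated start codon, 9 met no stop codon and 4 had sequence that was not known.

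Srsf1 was a different case. Both merged transcripts used the annotated 248-codon stop and then removed an intron beyond the coding end, of 77 bases in TCONS_00003003 and 881 bases in TCONS_00003004, so their stop lay 1228 and 489 bases upstream of the last junction. TCONS_00003003 took 85.9% to 99.2% of Srsf1 TPM in every embryo library. Pools of single stages (2-cell, 4-cell, 8-cell) also held 4-exon forms with the same 248 codons and no such intron, which had no counterpart in the merged set. In 8-cell embryos that form took 60.2% and 57.6% of Srsf1 TPM when requantified over that stage's own transcripts, so the merged shares hold only for the merged set.

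Srsf10 had a long form with a full arginine- and serine-rich tail (262 codons, TCONS_00014165) and short forms with a truncated tail (182 and 183 codons). The long form took 10.8% and 9.44% in oocytes, 14.4% and 16.0% in 1-cell, 24.7% and 21.0% in 2-cell, 42.4% and 39.7% in 4-cell, 23.9% and 18.2% in 8-cell embryos and 25.7% and 22.5% in blastocysts. Over the merged set, the libraries of each oocyte and embryo stage lay near each other, and the 4-cell libraries lay above all others. Over own-stage transcripts, the 262-codon forms took 17.8% and 29.8%, and 9.72% and 7.72%, in 2-cell embryos. In 4-cell embryos they took 21.3% and 23.2%, and 16.4% and 15.6%. The own-stage 262-codon form took 14.8% and 9.62% in 8-cell embryos and 16.8% and 13.1% in blastocysts. No step passed over the 11374 isoforms tested (4-cell to 8-cell -1.38 in the log2 ratio, SE 0.45, adjusted p = 0.236). The short forms took 42.7% and 57.4% in oocytes, 35.0% and 33.6% in 4-cell and 46.2% and 53.2% in 8-cell embryos. A truncated 3-exon transcript that encodes 69 codons (TCONS_00014162, the chain of Srsf10-207) took 19.0% to 43.7% in oocytes and embryos and 49.0% and 71.7% in sperm.

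Srsf5 differed by first exon. TCONS_00004495 has a short first exon of 164 bases (chr12:80945509-80945672), and TCONS_00004497 one of 266 bases (chr12:80945533-80945798) that reaches further downstream. Both encode 269 codons. TCONS_00004497 took 61.7% and 30.7% of Srsf5 in 1-cell and 12.5% and 8.32% in 2-cell embryos. Its usage fell by 2.83 in the log2 ratio (SE 0.73, adjusted p = 0.0278), a loss of 35.8 percentage points. Of the 39 member isoforms tested over 5 transitions, this was the 1 change called. In that step 11.1% of the 11374 isoforms were called, and 0.00879% from oocyte to 1-cell, 0.132%, 0.185% and 0.22% in the later steps in order. The call was lost without 1-cell replicate 1 (-1.98, adjusted p = 0.178), 2-cell replicate 2 (-2.48, adjusted p = 0.0868) or either 4-cell library (-2.83, adjusted p = 0.0503). Another first exon, of 59 bases and further downstream (TCONS_00004500), took 48.8% and 54.4% of Srsf5 TPM in sperm, 0% and 1.68% in oocytes, 0% in both 1-cell libraries, 35.1% and 2.09% in 2-cell embryos and 2.01% to 18.1% later. The sperm libraries with this form also held the leukocyte and epididymal markers given above, and their part in its share was not tested. The merged set lacks the early-stop Srsf5 forms of the sperm and 2-cell pools given above. The shares by first exon therefore hold only for the merged set.

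**Figure D5:**
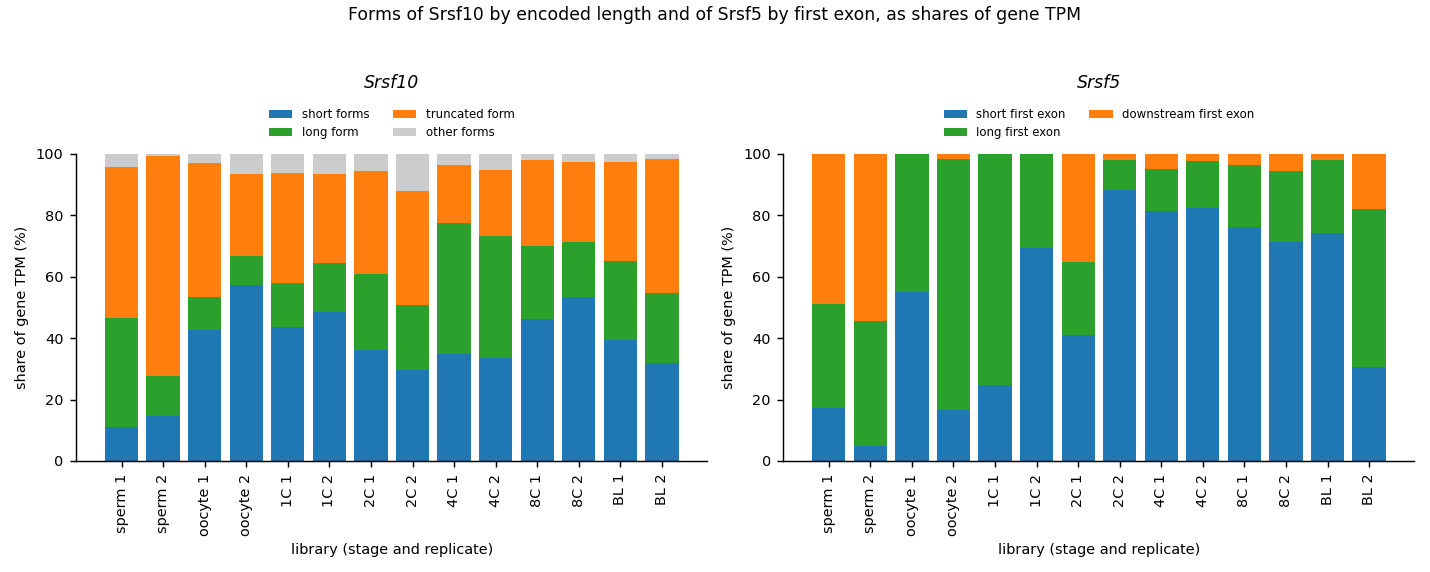
Share of gene TPM over the merged transcripts, in percent, by encoded length for Srsf10 (left) and by first exon for Srsf5 (right) in each library. The long Srsf10 form is largest in the 4-cell libraries (42.4% and 39.7%), and the downstream first exon of Srsf5 in sperm (48.8% and 54.4%).

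Srsf2 was split between the coding transcript TCONS_00004115 (221 codons) and a 520-base transcript without the start codon. The 520-base transcript, TCONS_00004114, has the chain of Srsf2-203, which is annotated as a retained intron. The latter took 0.724% and 0% in oocytes, 34.2% and 1.65% in 1-cell, 17.6% and 76.5% in 2-cell, 44.8% and 56.8% in 4-cell, 58.9% and 33.9% in 8-cell embryos and 60.0% and 35.1% in blastocysts. The 2-cell libraries lay at the extremes of the later range, and no step passed.

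A further set of forms differed by 1 codon at a pair of neighbouring acceptor sites. The 3 exon starts are shown because the longer form of each begins with the same bases. Capitals mark the 3 bases that only the longer form keeps, at chr12:80949717-80949746 (plus strand), chr4:135863523-135863552 (plus strand) and chr3:158012174-158012203 (minus strand).
Srsf5 last exon: CAGgtcaagaagcaggtcacgatctcggac
Srsf10 internal exon: CAGtagaccgactggaagaccacggcgtag
Srsf11 last exon: CAGgtgactcgggattatgatgaagaggag

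In Srsf5 the longer form was the minor one, at 11.5% to 24.9% of the pair in all 14 libraries. In Srsf10 the 3 transcripts with the longer exon together took 74.5% to 90.6%, against 1 transcript with the shorter exon. The 3 include the long form of 262 codons, so this range is not that of forms differing by 1 codon only. Of the short forms, which do differ by 1 codon, the 183-codon transcript lay above the 182-codon one in all 14 libraries. In Srsf11 the longer form took 77.8% to 98.4%. Over the same libraries the gene levels of Srsf5 and Srsf11 spanned 10.8-fold and 7.73-fold between the lowest and the highest stage mean.

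Genes whose level ran most like that of a member over the 14 libraries (Pearson r of log2(TPM + 1), 7320 candidate genes with a mean TPM of at least 10) were Chd1 for Srsf1 (r = 0.956), Klf9 for Srsf2 (0.941), Psmb2 for Srsf3 (0.961), Pak4 for Srsf4 (0.916) and Acyp1 for Srsf5 (0.959). They were also 9130401M01Rik for Srsf6 (0.963), Mcfd2 for Srsf7 (0.972), Gtf2h1 for Srsf10 (0.869) and Ube2j2 for Srsf11 (0.961). The genes of each pair were measured in the same libraries.

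The partners of SR proteins moved in both directions. Of 10 genes for SR protein kinases and nuclear import, 7 were tested. From 1-cell to 2-cell 1 rose and 1 fell, and from oocyte to blastocyst 1 rose and 2 fell (medians -0.03 and -0.67, against 0.72 and 0.82 for all genes, of which 26.1% and 35.4% rose). Tnpo3, the importin of SR proteins, was at 1.08 and 0.348 TPM in 1-cell and 17.9 and 31.1 in 2-cell embryos (3.88, adjusted p = 0.000626). Srpk2, a kinase of the SR tail, was at 659 and 1280 TPM in oocytes, 707 and 538 in 1-cell and 77.4 and 193 in 2-cell embryos, and 22.4 and 31.8 in blastocysts. It fell by 2.32 from 1-cell to 2-cell (adjusted p = 0.0252). The change from oocyte to blastocyst was -5.05 (adjusted p = 7.39e-05). Its longest merged transcript had 824 bases and 8 exons. Srpk1 fell by 1.91 from oocyte to blastocyst (adjusted p = 0.0454).

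Of 15 genes for SR-related proteins, 14 were tested, and 2 rose from 1-cell to 2-cell and 3 from oocyte to blastocyst, with none lower. These are smaller shares than the 26.1% and 35.4% of all genes that rose, and the medians of the list were 0.24 and -0.07 (0.72 and 0.82 over all genes). Tra2a, an SR-like splicing activator, was at 5.62 and 3.40 TPM in 1-cell and 119 and 72.3 in 2-cell embryos (4.12, adjusted p = 0.00093) and at 168 and 318 TPM in blastocysts. Luc7l, a U1-associated factor, rose by 2.31 and 2.35 in the same comparisons, and Acin1 by 2.27 from oocyte to blastocyst, measured on 1 single-exon transcript of 744 bases. All 8 genes of U1 and U2AF partners were tested, and the same number, 2, rose in each comparison, beside 26.1% and 35.4% of all genes. The medians of this list were 0.75 and 0.40. Snrpc, a U1 protein that contacts the 5′ splice site, was at 7.69 and 4.01 TPM in 1-cell and 119 and 355 in 2-cell embryos (4.97, adjusted p = 0.000364), and Snrpa rose by 2.36.

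For nonsense-mediated decay, 13 of 15 genes were tested. From 1-cell to 2-cell 4 rose and 1 fell, and from oocyte to blastocyst 4 rose and 2 fell, with medians of 0.72 and 0.86 that lay close to those of all genes. Of all 10000 genes, 2607 rose and 620 fell in the former comparison and 3543 rose and 1798 fell in the latter. Smg5, which takes part in the dephosphorylation of Upf1, was at 0.879 and 0.549 TPM in 1-cell and 24.5 and 30.4 in 2-cell embryos (4.05, adjusted p = 0.000421). Rbm8a, an exon junction protein, rose by 3.75 and 5.54 in these comparisons. Casc3 rose by 3.50 from 1-cell to 2-cell and Upf1, the decay helicase, fell by 4.92 from oocyte to blastocyst, with Smg5, Casc3 and Upf1 each measured on 1 single-exon transcript, of 558, 986 and 264 bases.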

How the data were processed

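Stage and replicate number were read from the sample titles. The authors mapped long reads to mm10 with GMAP, collapsed them by stage, merged the stages with Cuffmerge, and deposited exon coordinates. The authors ran salmon on the short reads and deposited TPM, over the merged transcripts and over each stage's own transcripts. TPM keeps no read depth, so no counting interval was given. Exon coordinates have the unit "other" and are deposited positions, not measurements.

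Merged transcripts were assigned to GENCODE vM21 genes by same-strand exon overlap (the methods name vM20), and TPM summed. Levels were tested with limma 3.58.1 (R 4.3.3) on log2(TPM + 1), with stage as the only term and an empirical Bayes trend, over 12 libraries (14 for sperm), for genes that reached a TPM of 1 in 2 or more of them. P-values were adjusted by Benjamini-Hochberg within a comparison over all genes, and called under 0.05. Isoform usage was tested as the log2 ratio of an isoform to the rest of its gene, each plus 1, and called with a share difference over 0.1. The planned rule for early-stop transcripts was the annotated biotype, by which only TCONS_00009459 counted among the members. The early-stop counts and shares given above follow the reading frame, except where the annotated form is named. With no genome at hand, the reading-frame rule used vM21 transcript sequences and was added after seeing the data, as were the comparison across the 2-cell stage and the fit without both 2-cell libraries. Named isoforms took at least 10% of their gene in a stage or had an early stop. The gene whose levels ran most like Srsf9 is not reported here. Members and gene lists were chosen with earlier results of these data known. The tests were tried on simulated data. No source says that same-numbered libraries share a batch, so no block was used. With 2 libraries a stage, p-values measure the spread between these pools, which may be technical.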

Additional observations from a re-analysis of the deposited data

How the results depend on the processing

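Among single-gene results, 327 of 414 values under alternatives stayed on their side of the threshold, 87 lost significance and 0 reversed. These results had all passed in the reported fit. Many alternatives, such as leaving out a library of another stage, change only the error and not the estimate. The count of reversals therefore says little about direction. Counts of members called moved as follows. With quantile normalization 2 members were called from 1-cell to 2-cell and 2 from oocyte to blastocyst, and 2 isoforms changed usage. With array weights by stage the counts were 1 (1-cell to 2-cell), 0 (2-cell to 4-cell), 1 (4-cell to 8-cell), 0 (sperm to oocyte), and 0 for the annotated early-stop share. Fitting only the 4 libraries of a contrast gave 0 (2-cell to 4-cell), 2 (4-cell to 8-cell), 0 (sperm to oocyte) and 0 for usage. A pseudocount of 0.1 gave 0 from 2-cell to 4-cell, 0 for usage and 0 for the annotated early-stop share, and no filter on low values gave 0 from 2-cell to 4-cell. Without both 2-cell libraries 9 members were called from oocyte to blastocyst and 3 from sperm to oocyte. Over all genes these fits gave 6191 and 6341 calls, where the reported fits gave 5341 and 5753.

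Leaving out each library in turn gave 1 to 5 members (1-cell to 2-cell), 0 to 2 (2-cell to 4-cell), 2 to 9 (oocyte to blastocyst), 0 to 3 (sperm to oocyte), 4 to 8 (1-cell to 4-cell), 7 to 9 in the F-test, 0 to 3 isoforms with changed usage and 0 to 1 for the annotated early-stop share. The early-stop share of Srsf7 by reading frame (-3.74) ranged from -4.56 to -2.92, and its adjusted p was 0.0786 with a pseudocount of 0.1 and 0.0711 on 4 libraries (-3.74 each). The 100-base rule could be run only with the reading frame and called the same number, 1. The causes were not tested. Over all genes, array weights gave 1531 calls from 1-cell to 2-cell where the reported fit gave 3227, 1 from 2-cell to 4-cell against 340, and 3921 from 4-cell to 8-cell against 167. The 4-library fits gave 2080, 0 and 3482 in these steps, and the 2-cell to 4-cell count was 85 with a pseudocount of 0.1, 87 with the block and 1076 after quantile normalization.

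Whether replicate numbers pair the samples between stages could not be told. Deviations of same-numbered libraries correlated at -0.547 (2-cell and blastocyst) to 0.479 (8-cell and blastocyst) between stages. The labels number the 8-cell libraries in opposite ways, and the sample titles were followed, so the sign of the 8-cell correlations depends on that choice. With a replicate block 0 members were called from 2-cell to 4-cell. Requantified over own-stage transcripts, 33 of 50 gene levels moved by less than 1 SD of the replicates and 17 by more.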
